A study of Mus musculus with 4 samples.

Results

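The 8 genes Il33, Il1a, Il1b, Il1rn, Il1r1, Il1rap, Il1r2 and Il1rl1 encode the ligands, the antagonist and the receptors through which IL-1 and IL-33 act, and they were followed in cells sorted from mouse melanoma as cancer-associated fibroblasts (CAF). They are 8 of the 33696 genes counted and were listed by name, with earlier results of these data known. Tumors were raised by injecting B16-F1-OVA cells, a mouse melanoma line made to carry ovalbumin, into the peritoneum of C57Bl/6-background mice, and were taken after 14 days. All hosts came from a cross of Cxcl13-cre-tdTomato with R26R-eGFPflox mice: tdTomato marks cells in which the Cxcl13 promoter, which also drives the Cre recombinase, is active, and eGFP marks cells that have expressed Cre, together with their progeny. CD45neg CD31neg podoplanin-high cells were sorted on these reporters: cells with neither reporter (tdTomatoneg eGFPneg), with tdTomato alone (tdTomato+ eGFPneg), with both (tdTomato+ eGFP+) and with eGFP alone (tdTomatoneg eGFP+). Each population was sequenced as 1 single-cell library, with animals not told apart by the labels. The question the design poses for these genes is where each ligand and each receptor sits, among the sorted populations and among the cell types that they hold.

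IL-1α (Il1a), IL-1β (Il1b) and IL-33 (Il33) are cytokines of 1 family. IL-1α and IL-33 are stored in cells and act as alarm signals when released, whereas IL-1β is made as an inactive precursor, mostly by myeloid cells, and is cut by caspase-1. Both forms of IL-1 bind the receptor IL1R1, which then recruits the accessory chain IL1RAP and signals through MYD88, IRAK kinases and TRAF6 to NF-kB. The IL-1 receptor antagonist (Il1rn) occupies IL1R1 without recruiting the accessory chain, and IL1R2 is a decoy that binds IL-1 but lacks a signalling tail. IL-33 binds ST2 (Il1rl1) together with the same accessory chain, on mast cells, group 2 innate lymphoid cells and regulatory T cells among others, and fibroblasts and other stromal cells are known sources of IL-33. Il1rl1 also encodes a soluble form of ST2, which gene counts do not separate from the receptor.

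The receptor genes lie close together: Il1r2, Il1r1, Il1rl2, Il1rl1, Il18r1 and Il18rap are consecutive genes on mouse chromosome 1, and Il1a and Il1b are neighbours on chromosome 2. Il1rn is on chromosome 2 beside Il1f10, Il33 is on chromosome 19 and Il1rap is on chromosome 16. RefSeq gave 13 annotated transcription starts for the 8 genes. The 250 bases before the start are shown for the 3 ligands and for the accessory chain, because the ligands share the letters TATAAA, known from the core of many promoters, which no window of the receptor genes held. They are in GRCm38.p6, read 5′ to 3′ on the gene's strand up to the base before the start, and capitals mark TATAAA and the AP-1 motif TGANTCA.
Il33, second start, chr19:29945540-29945789, plus strand: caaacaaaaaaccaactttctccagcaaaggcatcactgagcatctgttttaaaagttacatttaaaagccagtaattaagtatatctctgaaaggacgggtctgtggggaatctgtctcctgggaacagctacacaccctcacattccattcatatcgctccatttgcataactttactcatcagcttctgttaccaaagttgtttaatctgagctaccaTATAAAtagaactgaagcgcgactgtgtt
Il1a, chr2:129309973-129310222, minus strand: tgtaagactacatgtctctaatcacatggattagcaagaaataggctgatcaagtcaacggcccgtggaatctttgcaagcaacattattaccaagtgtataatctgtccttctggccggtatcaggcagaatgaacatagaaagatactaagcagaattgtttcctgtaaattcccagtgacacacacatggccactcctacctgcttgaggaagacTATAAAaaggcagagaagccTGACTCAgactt
Il1b, chr2:129371140-129371389, minus strand: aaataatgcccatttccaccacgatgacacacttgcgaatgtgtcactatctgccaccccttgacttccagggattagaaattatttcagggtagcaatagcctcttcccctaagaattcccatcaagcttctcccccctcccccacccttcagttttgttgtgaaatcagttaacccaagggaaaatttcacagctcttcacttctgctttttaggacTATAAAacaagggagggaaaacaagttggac
Il1rap, chr16:26581455-26581704, plus strand: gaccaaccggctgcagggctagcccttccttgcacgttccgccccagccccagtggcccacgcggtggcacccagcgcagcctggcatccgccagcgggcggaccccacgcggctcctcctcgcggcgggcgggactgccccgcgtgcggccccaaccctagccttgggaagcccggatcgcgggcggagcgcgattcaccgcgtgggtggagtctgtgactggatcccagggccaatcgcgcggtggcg
TATAAA ended 27 bases before the start in Il1a, 26 in Il1b and 24 in the second start of Il33. The first start of Il33 had it only farther away, ending 198 bases before. Searched on both strands, TATAAA was in 4 of the 13 windows of these genes and in 12.4% of all 32851 windows of the same length. TGANTCA was in 2 of the 13, Il1a (TGACTCA, 12 to 6 bases before the start) and the first start of Il1rn (TGAGTCA, 141 to 135 bases before), and in 6.75% of all. An NF-kB decamer was in 1 of the 13, the second start of Il1r1, and in 7.25% of all. The Il1rap window was the richest in G and C of the 13, at 74.4% with 30 CpG, where the median of all windows was 52.4% with 6 CpG. The ligand windows held 39.6% to 45.2% G and C and 2 to 4 CpG. These matches describe letters only, and the 3′ counts do not tell which start was used.

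Of 24489 barcodes, 22691 passed the study's limits on genes and mitochondrial UMIs (unique molecular identifiers, 1 per captured transcript). The 4 libraries held 10071954 to 90259852 UMIs in 920 to 10813 kept cells, and pairs of libraries shared 2 to 17 barcodes. Clustering without these 8 genes gave 21480 collagen-expressing cells, 622 melanoma-like cells and 589 immune-like cells. The sort should have removed the immune-like cells, which are CD45-expressing by their markers, and in them the collagen marker genes summed to 14430 CPM (UMIs of the gene per 1000000 UMIs of the cells), against 21180 CPM in collagen-expressing and 1813 CPM in melanoma-like cells. Immune subcluster 1, with 305 of the 589 cells, carried most of that (17920 CPM), and subcluster 2, with 163 cells that express macrophage markers (13990 CPM), held 781 CPM. The median cell of subcluster 1 held 12734 UMIs, against 2592 in subcluster 2. Removal of the expected share of doublets, tried as an alternative, took 47 cells of subcluster 1 (15.4%, against 6.8% of all kept cells) and 0 of subclusters 2, 3 and 4. The main values on immune-like cells are therefore also given without subcluster 1 (284 cells), an alternative chosen after the data were seen. Reclustering of the collagen-expressing cells gave 7 groups. These were a Calb2-high group (4759 cells), a cycling group (4424), a mesothelial-like group (3512), a matrix fibroblast-like group (3476), a Wdr17-high mesothelial-like group (2246), an Inmt-high group (1849) and a cycling matrix fibroblast-like group (1214). The label fibroblast thus covers groups with mesothelial markers. Of 10 such genes the Wdr17-high group raised 3 (Lrrn4, Wt1 and Gpm6a), against 9 in the mesothelial-like group. Their list summed to 1582 CPM in it, 2576 CPM in mesothelial-like and 1274 CPM in cycling cells. The Calb2-high and Inmt-high groups are called by their leading genes. Inmt-high cells raised all 6 listed genes of Pi16-expressing fibroblasts (7214 CPM, against 584 CPM in the other groups). They also raised 4 of 9 matrix fibroblast genes (3598 CPM, against 3463 CPM in matrix fibroblast-like cells). The median cell of the Inmt-high group held 1747 UMIs, 0.312 of the median of its library, and 1746 of its cells came from the tdTomatoneg eGFPneg library. Cells of 1 library are not replicates, so no difference was tested across samples. Brackets hold exact 95% intervals, which cover counting error only, and differences between libraries cannot be told apart from differences between animals, sorts or library preparations.

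Detection split the 8 genes into an abundant set and a sparse set. Il33 was found in 11829 of the kept cells, Il1r1 in 13835, Il1r2 in 4672 and Il1rap in 3967. Il1a was found in 258 cells, Il1b in 141, Il1rn in 139 and Il1rl1 in 135. Collagen-expressing cells, which gave 91.9% of all UMIs, gave 97.7% of those of Il33, 97.7% of Il1r1, 97.8% of Il1r2, 95.2% of Il1rap and 98.1% of Il1rl1. Immune-like cells, with 2.58% of all UMIs, gave 90.5% of the UMIs of Il1b, 82.1% of those of Il1rn and 26.9% of those of Il1a. Without subcluster 1 they had 0.524% of all UMIs and gave 57.8%, 45.4% and 18.2% of the UMIs of these genes. Most of the Il1a outside the immune-like cells was in the Calb2-high group, which gave 23.5% of all UMIs and 46.9% of those of Il1a.

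**Figure D1:**
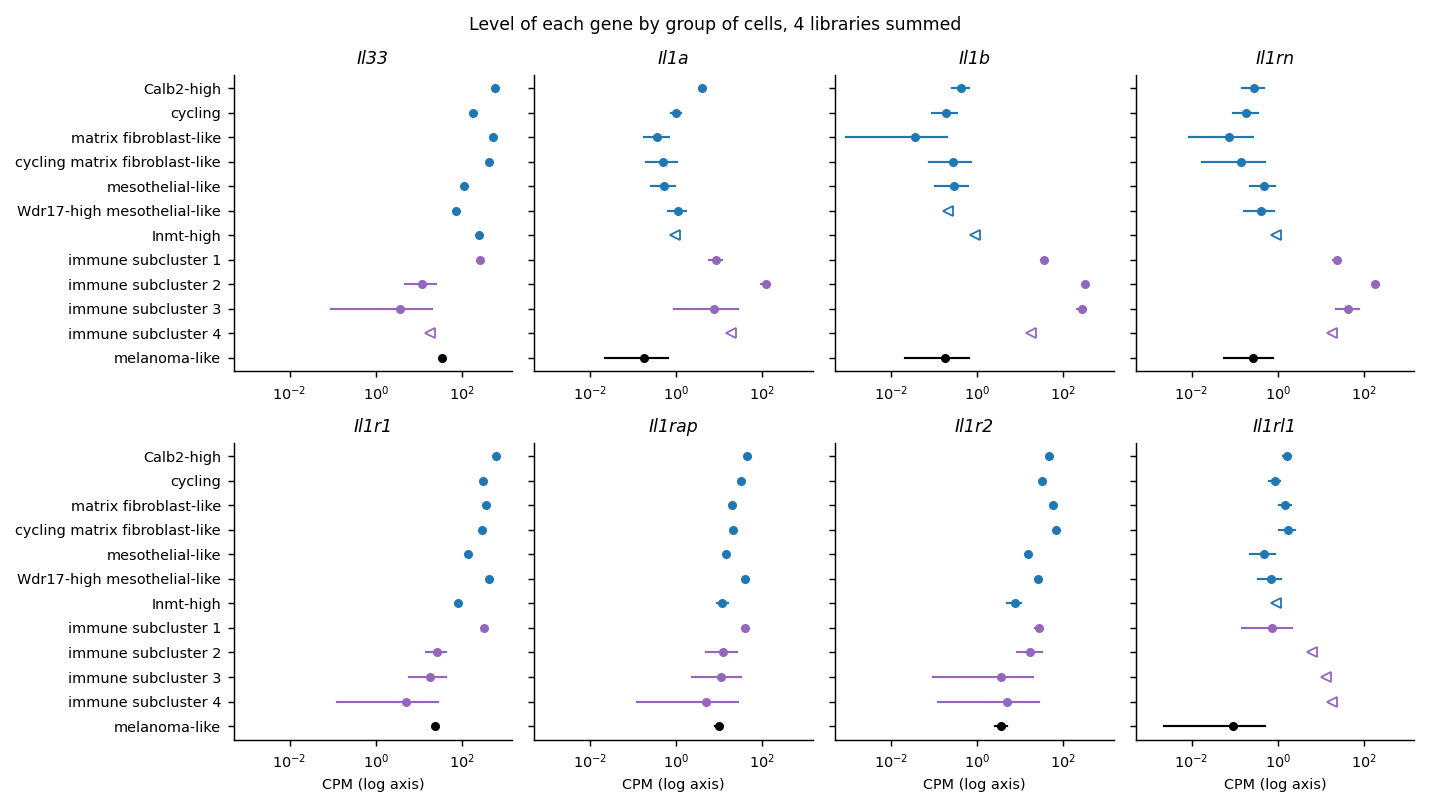
Level of each gene in CPM on a log axis, in the 7 groups of collagen-expressing cells (blue), the 4 immune subclusters (purple) and melanoma-like cells (black), with exact 95% counting intervals and an open arrow at the upper limit where no UMI was found. Il1b and Il1rn stand highest in immune subcluster 2 (324 and 185 CPM), whereas Il33 and Il1r1 stand highest in the Calb2-high group (595 and 635 CPM). Cells of both sexes are pooled.

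Il33, the ligand of ST2, was higher in the Calb2-high and matrix fibroblast-like groups than in the mesothelial-like groups. It stood at 595 CPM (588–602) in Calb2-high cells, 526.5 CPM (518–535) in matrix fibroblast-like cells and 423 CPM (412–434) in cycling matrix fibroblast-like cells. It then stood at 253 CPM (238–269) in Inmt-high cells, 187 CPM (184–191) in cycling cells, 115 CPM (111–119.8) in mesothelial-like cells and 75.2 CPM (71.2–79.3) in the Wdr17-high mesothelial-like group. No neighbours in this order of 7 groups had overlapping intervals. The order pools cells of both sexes. Among cells with Xist UMIs and none of Y-linked genes, matrix fibroblast-like cells stood above Calb2-high cells, as given with the sex marks below. At least 1 Il33 UMI was found in 72.1% of Calb2-high cells and in 30.2% of Wdr17-high cells. Melanoma-like cells held 35.5 CPM (32.1–39.1) and 22.7% of them held a UMI at a median of 17636.5 UMIs, against 53.5% of collagen-expressing cells at a median of 7255. With each cell thinned to 1000 UMIs these shares were 2.93% and 20.1%. Among immune-like cells Il33 stood at 262.5 CPM in subcluster 1, at 12.1 CPM (4.88–24.98) in subcluster 2, from 7 UMIs, and at 3.65 CPM in subcluster 3, from 1 UMI. Subcluster 4, 25 cells rich in immunoglobulin genes, held none, which allows up to 18.2 CPM. Relative to the collagen marker genes, Il33 gave 16.2 UMIs per 1000 collagen UMIs (16.1–16.3) in collagen-expressing cells, 14.7 (13.8–15.6) in immune subcluster 1, 15.5 (6.24–32.0) in subcluster 2, 4.26 (0.108–23.7) in subcluster 3, 0 (up to 41.9) in subcluster 4 and 19.6 (17.7–21.6) in melanoma-like cells. Immune subcluster 1 thus lay below and melanoma-like cells above the collagen-expressing cells beyond counting error. The part of free or carried-over RNA in the values outside collagen-expressing cells was not tested.

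Il1a, a ligand of IL1R1, was found both in immune subcluster 2, which is macrophage-marked, and in the Calb2-high group. Subcluster 3, with macrophage markers at 14210 CPM, held 2 Il1a UMIs (7.29 CPM, 0.883–26.35). In immune subcluster 2 Il1a stood at 119.5 CPM (93.0–151) with UMIs in 19.0% of cells. Its level there was 78.8 CPM (40.7–138) in the tdTomatoneg eGFPneg library, 135 CPM (97.0–183) in tdTomato+ eGFPneg, 118 CPM (32.3–303) in tdTomato+ eGFP+ and 137 CPM (70.7–239) in tdTomatoneg eGFP+. These 4 intervals overlapped. Calb2-high cells held 3.87 CPM (3.33–4.48), above the interval of every other collagen-expressing group, of which the next was the Wdr17-high group at 1.08 CPM. In the same library order Calb2-high cells held 3.02 CPM (1.87–4.62), 4.36 CPM (3.55–5.30), 4.69 CPM (2.82–7.32) and 3.23 CPM (2.34–4.35). A UMI was seen in 2.67% of Calb2-high cells. The Inmt-high group held none, which allows up to 0.919 CPM, and melanoma-like cells held 2 UMIs.

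Il1b, the myeloid form of IL-1, was found mostly in immune-like cells. It stood at 79.1 CPM (71.6–87.1) in all immune-like cells and at 0.222 CPM (0.159–0.301) in collagen-expressing cells, where 41 UMIs were found in 0.140% of cells. In subcluster 2 it stood at 324 CPM (279–374), with UMIs in 27.6% of 163 cells. By library that level was 118 CPM (70.0–187) in 40 tdTomatoneg eGFPneg cells, 326 CPM (265–397) in 82 tdTomato+ eGFPneg cells, 29.6 CPM (0.749–165) from 1 UMI in 10 tdTomato+ eGFP+ cells and 787 CPM (612–996) in 31 tdTomatoneg eGFP+ cells. The tdTomatoneg eGFP+ library stood above the other 3 there, with no overlap of intervals, from 69 UMIs in 14 cells. The shares of cells with a UMI did overlap, at 45.2% (27.3–64.0) there against 26.8% (17.6–37.8) in tdTomato+ eGFPneg. Subcluster 3, 96 cells led by Gzma, Cd7 and Lck, also held macrophage markers at 14210 CPM, against 430 CPM for T or NK cell markers. Il1b stood there at 273.5 CPM (215–343), but 51 of its 75 UMIs came from 4 cells of the tdTomato+ eGFPneg library. The neutrophil marker list summed to 13.9 CPM over immune-like cells, with S100a9 and Retnlg at 0.

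Il1rn, the receptor antagonist, followed Il1b in its distribution between classes. It stood at 41.5 CPM (36.1–47.4) in immune-like cells, at 185 CPM (152–224) in subcluster 2 and at 0.238 CPM (0.173–0.319) in collagen-expressing cells, from 44 UMIs. Unlike Il1b, it differed little between the libraries within subcluster 2, where it stood at 184 CPM (122–266), 175 CPM (131–228), 296 CPM (142–544) and 182.5 CPM (104–296) in the order above, with overlapping intervals. Both genes were seen together in 10 cells of subcluster 2, where 45 cells held Il1b and 42 held Il1rn. Il1a and Il1b were seen together in 11 cells, of 31 with Il1a. The 2 mesothelial-like groups together held 17 Il1rn UMIs and the 2 matrix fibroblast-like groups held 4, too few for a comparison under the minimum of 50 used here.

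Il1r1, the signalling receptor of IL-1, was the receptor found in most cells, and its order of groups differed from that of Il33. Calb2-high cells stood first at 635 CPM (628–643), with a UMI in 83.9% of cells, and the Wdr17-high mesothelial-like group came next at 418 CPM (409–428), with 70.9%. Matrix fibroblast-like cells held 363.5 CPM (356–371), cycling cells 314 CPM (310–319) and cycling matrix fibroblast-like cells 289.5 CPM (281–298.5). The mesothelial-like group held 140.5 CPM (135.5–146) and the Inmt-high group 80.0 CPM (71.5–89.3). No neighbours among these 7 groups overlapped. Melanoma-like cells held 23.7 CPM (20.9–26.7), and a UMI was seen in 1.63% of them after thinning, against 24.3% of collagen-expressing cells. Per 1000 collagen UMIs, Il1r1 gave 18.3 UMIs (18.1–18.4) in collagen-expressing cells, 18.7 (17.7–19.7) in immune subcluster 1, 33.3 (18.6–54.9) in subcluster 2 and 13.1 (11.6–14.7) in melanoma-like cells. The subcluster 2 value rests on 15 UMIs.

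Il1rap, the accessory chain that both ligand systems share, was more even over the groups. It was highest in Calb2-high cells at 43.7 CPM (41.9–45.6), followed by the Wdr17-high group at 38.4 CPM (35.6–41.4), with neighbouring intervals that did not overlap. Cycling cells held 31.2 CPM (29.7–32.8). Cycling matrix and matrix fibroblast-like cells did not differ beyond counting error, at 20.7 CPM (18.4–23.2) and 19.8 CPM (18.2–21.5). Mesothelial-like cells at 14.1 CPM (12.5–15.8), Inmt-high cells at 11.7 CPM (8.61–15.6) and melanoma-like cells at 9.71 CPM (7.97–11.7) overlapped in neighbouring pairs. Melanoma-like cells held 5.36 Il1rap UMIs per 1000 collagen UMIs (4.40–6.46), against 1.43 in collagen-expressing cells.

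Il1rl1, the IL-33 receptor ST2, was sparse everywhere in these libraries. Collagen-expressing cells held 1.14 CPM (0.992–1.31), with a UMI in 0.619% of cells. Cycling matrix fibroblast-like cells at 1.69 CPM (1.09–2.52), Calb2-high cells at 1.67 CPM (1.32–2.08) and matrix fibroblast-like cells at 1.49 CPM (1.07–2.02) led an order in which all neighbours overlapped. The 3 UMIs found in immune-like cells came from 1 cell, and subclusters 2, 3 and 4 held none, which allows up to 6.39, 13.5 and 18.2 CPM. Mast cells, which carry ST2, were not evident: their marker list summed to 0.578 CPM in immune-like cells with 4 of 5 genes at 0. An Il33 UMI and an Il1rl1 UMI were found together in 92 collagen-expressing cells.

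Il1r2, the decoy receptor, had its highest levels in the matrix fibroblast-like groups. It stood at 67.1 CPM (62.9–71.5) in cycling matrix fibroblast-like cells, 57.2 CPM (54.4–60.1) in matrix fibroblast-like cells and 46.7 CPM (44.8–48.7) in Calb2-high cells. Cycling cells held 32.7 CPM (31.1–34.2) and the Wdr17-high group 26.2 CPM (23.9–28.7). Mesothelial-like cells held 15.6 CPM (14.0–17.4), Inmt-high cells 7.48 CPM (5.05–10.7) and melanoma-like cells 3.65 CPM (2.62–4.95). No neighbours in this order overlapped. As a share of the UMIs of Il1r1 and Il1r2 together, the decoy made up 9.25% (9.05–9.46) in collagen-expressing cells. This share was 18.8% (17.7–19.9) in cycling matrix fibroblast-like cells and 13.6% in matrix fibroblast-like cells, against 6.85% in Calb2-high and 5.89% in Wdr17-high cells. Within some groups it also differed between sorted populations. In cycling matrix fibroblast-like cells it was 21.4% (20.0–22.9) in tdTomatoneg eGFPneg and 12.97% (11.1–15.0) in tdTomato+ eGFPneg, with 13.02% in tdTomato+ eGFP+ and 18.9% in tdTomatoneg eGFP+. In matrix fibroblast-like cells it was 15.1% (14.3–15.9), 9.20% (7.99–10.53), 12.3% and 11.8% in the same order. In Calb2-high cells it was 8.79% (7.84–9.83) in tdTomatoneg eGFPneg and 6.23% (5.88–6.59) in tdTomato+ eGFPneg. In Wdr17-high cells these populations held 7.28% (6.14–8.56) and 4.99% (3.99–6.15). In cycling cells the intervals overlapped, at 9.90%, 9.19%, 9.85% and 9.28%, as they did in mesothelial-like cells, at 9.14%, 8.78%, 14.4% and 10.5%. Both molecules are counted from their 3′ ends with unknown capture, so the share is of use between cells and not as a ratio of proteins.

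**Figure D2:**
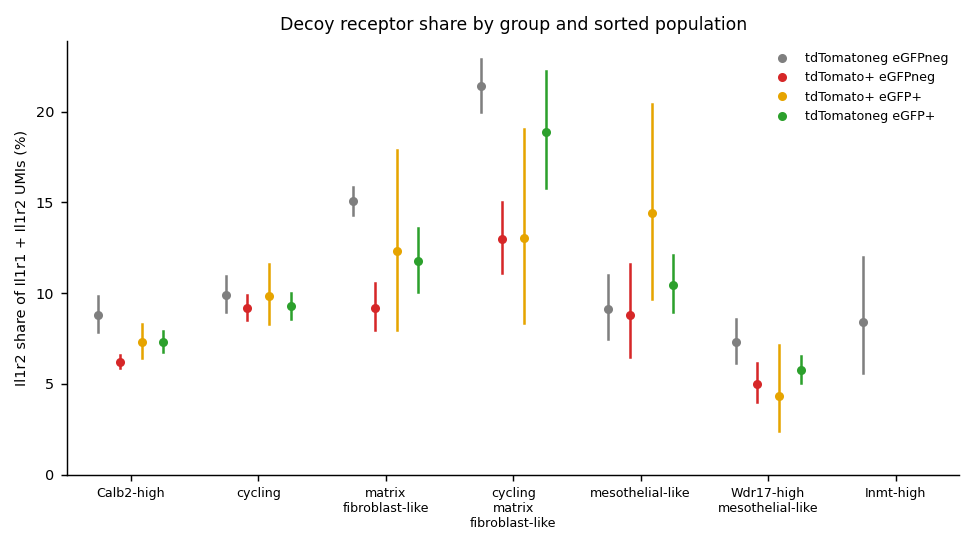
Share of Il1r2 in the summed UMIs of Il1r1 and Il1r2 (%, y axis), by group of collagen-expressing cells (x axis) and sorted population (color), with exact 95% intervals, where both genes together gave at least 50 UMIs. The highest point is the tdTomatoneg eGFPneg library of the cycling matrix fibroblast-like cells (21.4%). The tdTomatoneg eGFPneg library (grey) stands above tdTomato+ eGFPneg (red) in each group that shows both. Their intervals do not overlap in the Calb2-high group and both matrix fibroblast-like groups.

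Across collagen-expressing cells, the tdTomato+ eGFPneg population, in which the Cxcl13 promoter is active, held more Il1r1, Il1rap and Il1a than the tdTomatoneg eGFPneg population. Il1r1 stood at 247 CPM (243–250.4) in tdTomatoneg eGFPneg, 617 CPM (610.0–624) in tdTomato+ eGFPneg, 549 CPM (534–565) in tdTomato+ eGFP+ and 359 CPM (354–364) in tdTomatoneg eGFP+. All 3 reporter-expressing populations stood above the double-negative one, and those with tdTomato stood above the one with eGFP alone. Il1rap stood at 21.4 CPM (20.3–22.5), 43.4 CPM (41.5–45.3), 35.3 CPM (31.5–39.5) and 30.4 CPM (29.0–31.9) in the same order. Il1a stood at 0.642 CPM (0.474–0.851), 2.92 CPM (2.45–3.46), 3.33 CPM (2.23–4.78) and 1.295 CPM (1.01–1.63). Il33 had another pattern, with 317 CPM (313–321.5), 489.5 CPM (483–496), 529 CPM (514–545) and 226.5 CPM (222.5–230.5): the tdTomatoneg eGFP+ population was the lowest, and the tdTomato+ eGFP+ population the highest. This pools the sexes. Among cells with UMIs of Y-linked genes and none of Xist, the tdTomato+ eGFPneg population was the highest in Il33, as given below. Il1r2 stood at 37.1 CPM (35.7–38.5), 48.9 CPM (46.9–51.0), 50.1 CPM (45.5–55.1) and 33.1 CPM (31.6–34.6), and Il1rl1 at 1.06, 1.51, 1.03 and 0.971 CPM with overlapping intervals.

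**Figure D3:**
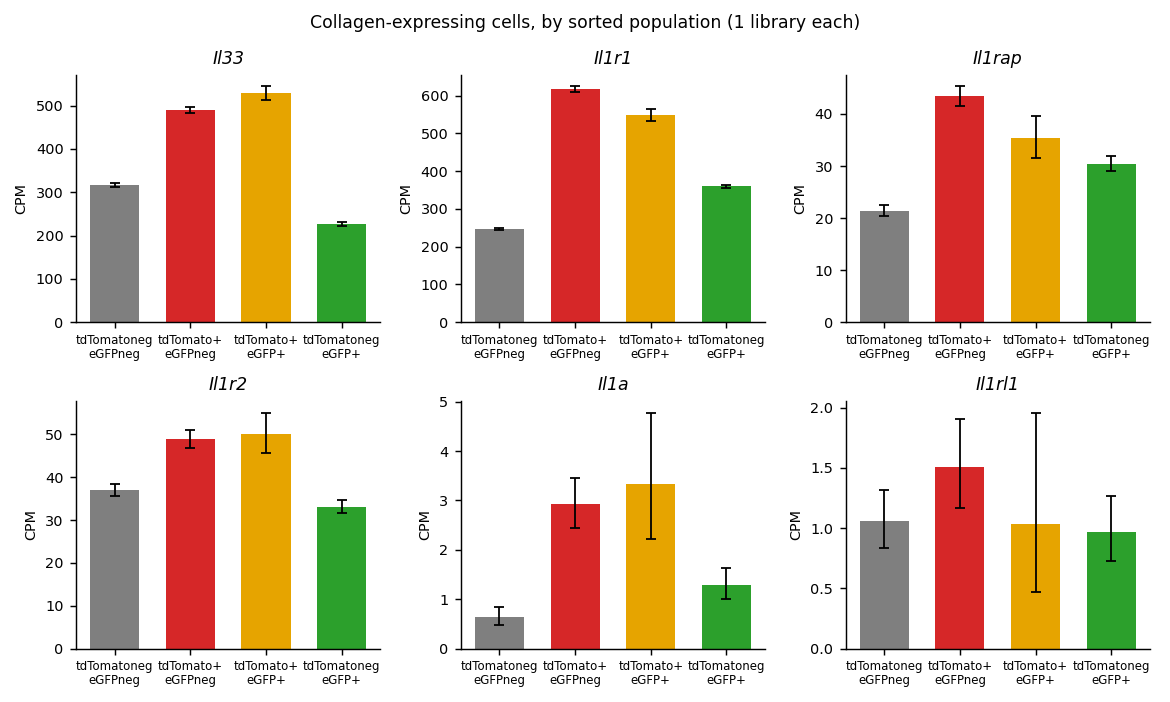
Level in CPM (bars, y axis from 0) of the 6 genes with at least 50 UMIs in collagen-expressing cells, by sorted population (1 library each), with exact 95% counting intervals. Il1r1, Il1rap and Il1a are lowest in tdTomatoneg eGFPneg cells, and Il33 is lowest in tdTomatoneg eGFP+ cells.

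In numbers, tdTomato+ eGFPneg cells against tdTomatoneg eGFPneg cells were past 2-fold for 3 of the 6 genes with at least 50 UMIs in both sides together, all higher, where 8.64% of 15052 genes were past 2-fold, 3.2% higher and 5.45% lower. Il1a was 4.55-fold higher (log2 2.19, 1.70–2.69), Il1r1 2.50-fold (log2 1.32, 1.30–1.35) and Il1rap 2.03-fold (log2 1.02, 0.92–1.12). Il33 was 1.54-fold higher (log2 0.63, 0.60–0.65), and the log2 fold was 0.51 (0.02–0.99) for Il1rl1 and 0.40 (0.32–0.48) for Il1r2. The populations differ in makeup: Calb2-high cells were 7.06% of the collagen-expressing cells in tdTomatoneg eGFPneg, 50.6% in tdTomato+ eGFPneg, 48.0% in tdTomato+ eGFP+ and 22.2% in tdTomatoneg eGFP+, and matrix fibroblast-like cells were 26.9%, 8.25%, 6.14% and 5.18%. When the groups were given equal weight in both libraries, none of the 3 genes remained past 2-fold: the log2 fold was 0.89 for Il1a, 0.98 for Il1r1 and 0.43 for Il1rap.

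Within the groups, Il1r1 was higher in tdTomato+ eGFPneg than in tdTomatoneg eGFPneg cells in 7 of 7, by log2 0.80 to 1.41, with only the Inmt-high interval reaching 0 (0.90, -0.07–1.72). It was past 2-fold in cycling cells, at 492 against 188.5 CPM, and in mesothelial-like cells, at 255 against 96.2 CPM. Il33 did not differ beyond counting error in Calb2-high cells (log2 -0.01), and differed most in cycling cells, at 326 against 132 CPM (log2 1.31). Cells with Xist UMIs and none of Y-linked genes were 70.0% of the sex-marked cycling cells in tdTomato+ eGFPneg, against 39.9% in tdTomatoneg eGFPneg. Il33 also differed between the sex marks, as given below. Over all collagen-expressing cells, its fold between these libraries was larger among cells marked by Y-linked genes alone than among cells marked by Xist alone. The part of sex makeup in the Il33 fold was not tested. Il1r2 was past 2-fold higher in tdTomato+ eGFPneg in cycling (log2 1.26) and mesothelial-like cells (log2 1.34) and level in matrix fibroblast-like cells (log2 0.00). Il1rap was past 2-fold in matrix (log2 1.07) and cycling matrix fibroblast-like cells (log2 1.05), while the interval reached 0 in mesothelial-like (log2 0.16) and Wdr17-high cells (log2 -0.15). Il1a had enough UMIs for a fold in Calb2-high cells alone, where it was 0.53 (-0.16–1.28) on the log2 scale.

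**Figure D4:**
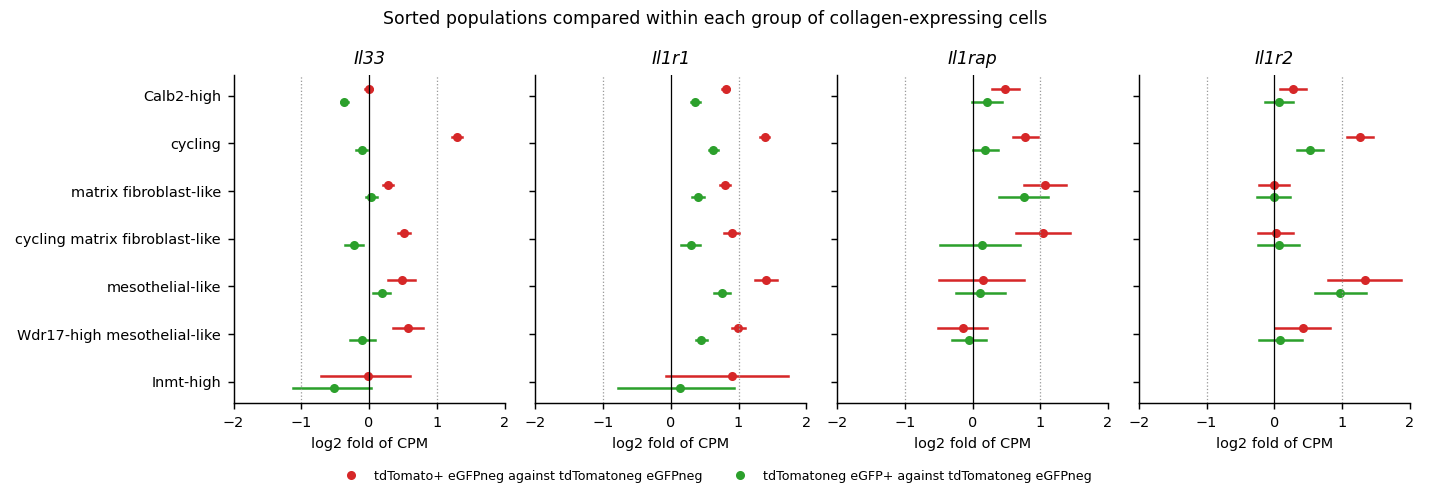
Log2 fold of CPM (x axis) of tdTomato+ eGFPneg (red) and tdTomatoneg eGFP+ (green) over tdTomatoneg eGFPneg cells within each group of collagen-expressing cells (y axis), with exact 95% intervals and dotted lines at 2-fold. For Il1r1 the red points lie right of 0 in all 7 groups and right of the green ones, whereas those of Il33 lie between -0.01 and 1.31.

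The tdTomatoneg eGFP+ population, whose cells carry the mark of earlier Cre expression with no current reporter of Cxcl13, was past 2-fold for 1 of 6 genes against tdTomatoneg eGFPneg cells, where 7.26% of genes were past 2-fold, 1.49% higher and 5.77% lower. That gene was Il1a (log2 1.01, 0.46–1.57), and its log2 fold was 0.17 with equal weights over groups. Il1r1 was higher by log2 0.54 (0.51–0.57) and Il1rap by 0.51 (0.41–0.61), while Il33 stood at -0.49 (-0.52 to -0.46) and Il1r2 at -0.16 (-0.25 to -0.08). Within groups Il1r1 stood higher in 6 of 7, by log2 0.30 to 0.76, and in the Inmt-high group the interval reached 0 (0.14, -0.79–0.94). Il33 within groups ranged from -0.52 to 0.19, and mesothelial-like and Wdr17-high cells, in which Il33 was lowest, made up 22.8% and 18.3% of the tdTomatoneg eGFP+ cells against 17.7% and 7.33% of tdTomatoneg eGFPneg cells. Both of these comparisons use the same tdTomatoneg eGFPneg library.

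Against tdTomato+ eGFPneg cells, tdTomato+ eGFP+ cells were past 2-fold for 0 of 6 genes, where 2.23% of 13208 genes were (0.341% higher and 1.89% lower). The log2 fold was 0.11 (0.07–0.16) for Il33, 0.04 for Il1r2, 0.19 (-0.45–0.77) for Il1a, -0.17 (-0.21 to -0.12) for Il1r1, -0.30 (-0.47 to -0.12) for Il1rap and -0.54 (-1.73–0.46) for Il1rl1. For Il33 the direction differed between the sex marks, as given below. The receptor was lower within the matrix fibroblast-like group, at 328 against 565.5 CPM for Il1r1 (log2 -0.79), and Il1rap there gave 7 UMIs against 115 (log2 -1.31).

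Melanoma-like cells stood lower than collagen-expressing cells for all 6 genes that could be read, of which 2 rest on 1 or 2 UMIs, where 44.4% of 16276 genes were past 2-fold and 30.2% lower. Il1r1 was 16.3-fold lower (log2 -4.03, -4.21 to -3.86), Il1r2 10.8-fold (log2 -3.43), Il33 9.67-fold (log2 -3.27, -3.42 to -3.13) and Il1rap 3.11-fold (log2 -1.64, -1.92 to -1.36). Il1rl1 stood at log2 -3.68, from 1 UMI in melanoma-like cells, and Il1a at -3.10, from 2 UMIs. Both calls were lost under an alternative, Il1rl1 at -0.37 in Xist-only cells and Il1a at -0.92 with a mean over cells. By library, Il33 in melanoma-like cells was 40.4 CPM in tdTomatoneg eGFPneg, 19.5 CPM in tdTomato+ eGFPneg, 13.6 CPM in tdTomato+ eGFP+ and 30.9 CPM in tdTomatoneg eGFP+, with 17 to 418 cells. Of 49 other pathway genes that could be read, 31 were past 2-fold lower and 1 higher, where 30.2% of all genes were lower and 14.3% higher. The median log2 of the 49 was -2.24, against -0.21 over all genes. All 16 response genes known to be induced by IL-1 were lower, among them Ccl2 (400 against 3290 CPM), Cxcl1 (212 against 1447), Nfkbia (145 against 1085) and Cxcl5 (51.0 against 535). Among other receptors, Sigirr, an inhibitory member, was the 1 gene higher (6.86 against 0.757 CPM), and 4 of 17 signalling genes were lower: Nfkb1, Rela, Myd88 and Irak3.

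Immune-like cells stood past 2-fold higher for 3 of 8 genes against collagen-expressing cells, where 16.7% of 16250 genes were past 2-fold, 9.21% higher and 7.53% lower. Il1b was 356.5-fold higher (log2 8.48, 8.01–8.98), Il1rn 174-fold (log2 7.45, 6.97–7.95) and Il1a 13.2-fold (log2 3.73, 3.39–4.05). By library, in the order above, Il1b in immune-like cells was 51.7 CPM (40.2–65.4), 87.0 CPM (75.6–99.6), 14.7 CPM (4.77–34.3) and 115 CPM (95.6–137). Il1rn was 31.5, 50.1, 55.9 and 30.1 CPM, and Il1a was 8.99, 25.7, 32.4 and 18.2 CPM. Il33 (log2 -0.70), Il1r1 (-0.52), Il1r2 (-0.72), Il1rl1 (-0.98) and Il1rap (0.16) lay within 2-fold. Without subcluster 1, 7 genes were past 2-fold, where 35.8% of all genes were (16.5% higher and 19.3% lower), with Il1b at log2 10.13, Il1rn at 8.89, Il1a at 5.46, Il33 at -5.50, Il1r1 at -4.28, Il1r2 at -1.79 and Il1rap at -1.53. In the same order of libraries, Il1b then had a counting interval of 92.0–178 CPM in the first and was at 315 CPM, 10.1 CPM (1 UMI) and 391 CPM in the others. Il1rn was 113, 124, 111 and 85.7 CPM, and Il1a was 41.1, 90.3, 40.4 and 64.3 CPM. With all immune-like cells, the median log2 of 49 other pathway genes was 0.03, against -0.12 over all genes. None was past 2-fold lower, where 7.53% of all genes were. The 5 past 2-fold higher are near the 9.21% share of all genes. They were Nlrp3, the inflammasome sensor upstream of caspase-1 (45.7 against 0.297 CPM), its adaptor Pycard (423 against 156 CPM), the kinase gene Irak2 (37.8 against 9.99 CPM), the neutrophil chemokine gene Cxcl2 (1334 against 222 CPM) and the IL-18 receptor gene Il18r1 (14.7 against 6.52 CPM). Without subcluster 1, 8 of the 49 were higher and 10 lower, near the 16.5% and 19.3% of all genes. The median log2 of the 49 was 0.22, against -0.14 over all genes. Nlrp3, Pycard, Irak2 and Cxcl2 were still among those higher, and Il18r1 was not. In subcluster 2 Nlrp3 stood at 194 CPM and Cxcl2 at 4847 CPM.

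Among collagen-expressing cells, both mesothelial-like groups together (5758 cells) were lower than both matrix fibroblast-like groups (4690 cells) for 3 of 5 genes, where 23.2% of 14219 genes were past 2-fold and 12.3% lower. Il33 was 97.0 against 491 CPM, 5.06-fold lower (log2 -2.34, -2.39 to -2.29). Within the libraries its log2 fold was -2.37 in tdTomatoneg eGFPneg, -2.30 in tdTomato+ eGFPneg, -1.72 in tdTomato+ eGFP+ and -2.32 in tdTomatoneg eGFP+. Il1r2 was 20.4 against 60.5 CPM (log2 -1.57, -1.69 to -1.45), lower in 4 of 4 libraries. Il1rl1 was 0.570 against 1.56 CPM (log2 -1.45, -2.22 to -0.73), but without the tdTomatoneg eGFPneg library it was at -0.64, and in Xist-only cells the direction turned, to 0.24. Il1r1 (266.5 against 338 CPM, log2 -0.34) and Il1rap (25.1 against 20.1 CPM, log2 0.32) lay within 2-fold. Without the Wdr17-high group, an alternative chosen after the data were seen, Il1r1 was past it at log2 -1.27. The IL-18 arm of the family ran the other way: Il18 (36.8 against 9.56 CPM), its receptor chains Il18r1 (19.8 against 1.27 CPM) and Il18rap (2.02 against 0.383 CPM), and its binding protein Il18bp (79.9 against 32.1 CPM) were higher in the mesothelial-like groups. Of 48 other pathway genes, 9 were higher and 2 lower, where 10.9% of all genes were higher and 12.3% lower. The median log2 of the 48 was 0.21, against 0.01 over all genes. Those lower were Il6 (73.0 against 261 CPM) and Mmp3 (15.1 against 84.0 CPM), and Tnfaip3 (169 against 61.9 CPM), an NF-kB inhibitor, and Csf3 (61.7 against 20.0 CPM) were among those higher.

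Few of the other pathway genes were past 2-fold between the sorted populations. Of 48 that could be read in tdTomato+ eGFPneg against tdTomatoneg eGFPneg collagen-expressing cells, 4 were past 2-fold higher and 2 lower, where 3.2% of all genes were higher and 5.45% lower. Their median log2 was 0.32, and 0.67 for the 16 response genes, against 0.07 over all genes. Those higher were Il1rl2, the IL-36 receptor (62.8 against 25.7 CPM), Casp1, which cleaves pro-IL-1β (46.6 against 20.2 CPM), Lif (27.7 against 9.31 CPM) and Mmp3 (133 against 49.9 CPM). Those lower were Il18r1 (1.03 against 11.6 CPM) and Sigirr (0.371 against 0.816 CPM). Il18r1 is among the leading genes of the mesothelial-like group. That group made up 17.7% of the collagen-expressing cells in tdTomatoneg eGFPneg and 6.41% in tdTomato+ eGFPneg. The part of makeup in the values of these pathway genes, the response genes included, was not tested. In tdTomatoneg eGFP+ cells Casp1 (41.8 CPM) was past 2-fold higher and Il18r1 (4.999 CPM) past 2-fold lower than in tdTomatoneg eGFPneg cells. Between the tdTomato+ populations none of 46 was past 2-fold, where 2.23% of all genes were. The IL-36 ligand genes Il36a, Il36b and Il36g and the antagonist gene Il36rn had 0 UMIs in the kept cells, which allows up to 0.0183 CPM each.

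Il33 and Il1r1, which are not a ligand and its receptor, were often found in the same cell. At least 1 UMI of both Il33 and Il1r1 was found in 8422 of 21480 collagen-expressing cells (39.2%) and in 3021 of 4759 Calb2-high cells (63.5%). Of the cells with an Il1r2 UMI 87.5% also held Il1r1, as did 84.9% of those with Il1rap. With 20890 cells thinned to 1000 UMIs, Il33 and Il1r1 were found together in 5.88% of cells, where the product of their separate shares is 4.88%. This pools groups with different levels of both genes. Within groups the shares were 12.5% against 11.8% in Calb2-high, 8.75% against 7.68% in matrix and 7.25% against 6.39% in cycling matrix fibroblast-like cells. They were 3.35% against 2.62% in cycling, 1.06% against 1.06% in mesothelial-like, 2.21% against 2.24% in Wdr17-high and 1.01% against 1.37% in Inmt-high cells. Over 31 groups of cells by library with at least 50 cells, Pearson's r of log2(CPM + 1) was 0.90 between Il1r1 and Il1r2, 0.82 between Il33 and Il1r2, 0.79 between Il1r1 and Il1rap and 0.71 between Il33 and Il1r1. Among 11636 genes the closest to Il33 by this measure were Snai1 (r = 0.92), Il6 (0.92) and Rasl11a (0.91), to Il1r1 Bach1 (0.98), Cyp7b1 (0.97) and Ror1 (0.97), to Il1r2 Col1a2 (0.96), Col3a1 (0.95) and Sparc (0.95), and to Il1rap Trps1 (0.89), Prickle1 (0.89) and Lrmda (0.88). These are descriptions over units that share libraries, and the collagen genes also served to define the classes.

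Both sexes of host contributed cells, and Il33 differed between the sex marks in each of the 6 groups with values for both. The Inmt-high group held too few Y-only cells for a value. Collagen-expressing cells were marked as Xist-only (6307 cells, with UMIs of Xist and of no Y-linked gene counted) or Y-only (4907 cells), with the rest unmarked. Il33 stood at 520.1 CPM (515–526) in Xist-only and 184 CPM (181–188) in Y-only cells. Within the libraries it was 512 against 162 CPM in tdTomatoneg eGFPneg, 583 against 347.5 CPM in tdTomato+ eGFPneg, 733 against 238 CPM in tdTomato+ eGFP+ and 386 against 113 CPM in tdTomatoneg eGFP+. The tdTomatoneg eGFPneg and tdTomato+ eGFPneg libraries thus lay closer in Il33 among Xist-only than among Y-only cells. Compared with tdTomato+ eGFPneg, Il33 in tdTomato+ eGFP+ was higher among Xist-only cells and lower among Y-only cells. By group it was 634 against 502 CPM in Calb2-high, 337 against 78.4 CPM in cycling, 739.9 against 314 CPM in matrix fibroblast-like, 640.1 against 253 CPM in cycling matrix fibroblast-like, 169 against 88.6 CPM in mesothelial-like and 162 against 62.0 CPM in Wdr17-high cells. Matrix fibroblast-like cells thus stood above Calb2-high cells among Xist-only cells and below them among Y-only cells. No interval of Il33 in Xist-only cells overlapped that in Y-only cells of the same library or group. Il1r1 was also higher in Xist-only cells of all groups summed (534 against 368 CPM) but lower in the mesothelial-like group (111 against 200.1 CPM). Il1rap was lower in Xist-only cells, at 33.3 CPM (31.9–34.7) in Xist-only and 37.7 CPM (36.1–39.4) in Y-only cells, and in Calb2-high cells at 41.3 against 70.4 CPM, but in the tdTomatoneg eGFP+ library it was level, at 35.5 against 34.9 CPM. Il1a stood at 2.41 CPM (2.05–2.82) in Xist-only and 0.933 CPM (0.697–1.22) in Y-only cells. Xist-only cells made up 57.0%, 66.1%, 64.8% and 43.8% of the marked cells in the 4 libraries, in the order used above. Of the marked cells of the Wdr17-high group, which has the Y-linked gene Uty among its leading genes, 15.1% were Xist-only, as were 98.7% of those of the Inmt-high group. The number of animals of each sex is not given, so sex and animal cannot be told apart.

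**Figure D5:**
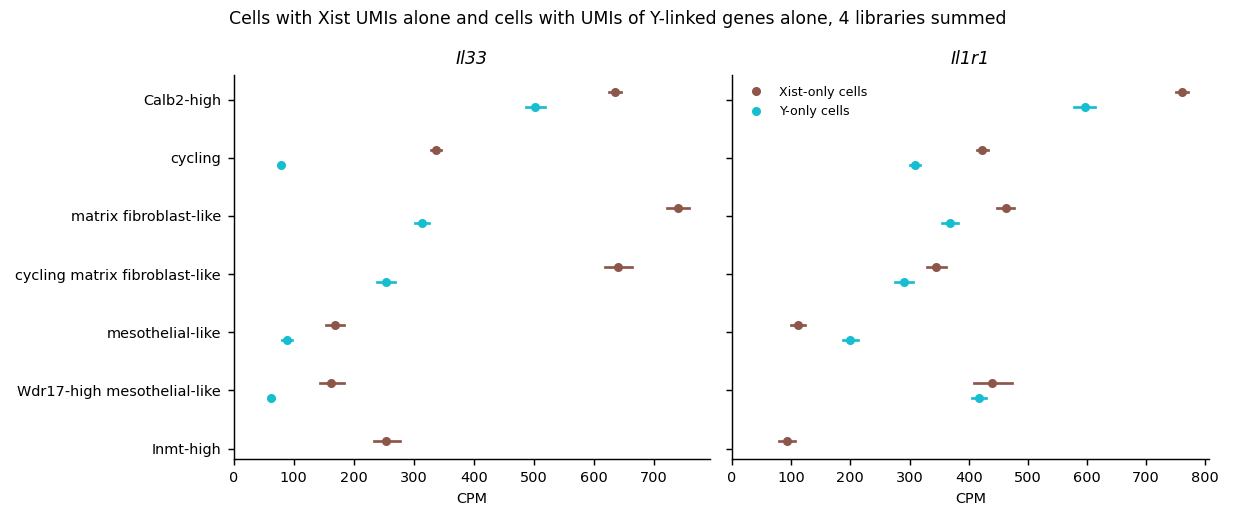
Level in CPM (x axis from 0) of Il33 and Il1r1 in Xist-only and Y-only cells of each group of collagen-expressing cells (y axis), 4 libraries summed, with exact 95% counting intervals. Il33 is higher in Xist-only cells in the 6 groups with values for both marks, whereas Il1r1 is higher in Y-only cells of the mesothelial-like group (200.1 against 111 CPM).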

How the data were processed

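The deposited files hold UMI counts per gene and barcode, made by the authors from 10x Genomics 3′ v3.1 libraries. Per the labels, the submitters' processing notes name Cell Ranger 10.0.0, STAR, Seurat 5.0 and the build GRCm39, whereas the file headers name Cell Ranger 8.0.0. The members and gene lists were chosen with earlier results of these data known. As in the study, a cell was kept if it had 500 to 6000 detected genes and no more than 10% of its UMIs from mitochondria. Cells were clustered in Seurat 5.3.0 (R 4.3.3) with 2000 variable genes and 25 components, leaving the 8 genes and a list of 55 pathway genes out of the variable genes. Thresholds for naming groups (marker raised 2-fold and at least 10 CPM, 3 markers) were set after seeing the data. No doublets were removed: at its own threshold Scrublet (scanpy 1.11.5, Python 3.11.15) called 8 cells, and removal of the expected share was tried as an alternative. UMIs were summed over cells and divided by all UMIs of those cells (CPM). Intervals were exact Poisson (levels), Clopper-Pearson (shares) and conditional binomial (folds), at 95%, computed with scipy 1.17.1. A fold past 2 was counted among genes with at least 50 UMIs in both sides together, and a side with 0 UMIs was set to 3 counts. Each population was 1 library, so no test across samples was possible. On simulated counts of 14918 genes, 196 of 196 genes changed 4-fold were recovered. The simulated counts followed the counting model of the intervals, with no variation between cells, animals or libraries. They therefore check the calculation only. All 8 genes are named in every comparison, and other pathway genes are named where past 2-fold, up to 4 per role by UMIs. Promoter windows came from RefSeq in GRCm38.p6, another build than the counts.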

Additional observations from a re-analysis of the deposited data

Results flagged for a closer look

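The filter left out 1798 barcodes with 14364317 UMIs, which no comparison above uses, and all 8 genes stood above the 0.209 CPM that a count of 0 would allow there. In these barcodes Il33 stood at 120.3 CPM (114.7–126.1), Il1r1 at 262.8 CPM, Il1rap at 33.7 CPM and Il1r2 at 15.7 CPM. Il1a stood at 3.41 CPM, Il1b at 2.92 CPM, Il1rn at 1.81 CPM and Il1rl1 at 0.557 CPM. Which cells these barcodes held was not tested.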

How the results depend on the processing

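No paired analysis was possible because each sorted population is 1 library and the labels number no replicates. Between tdTomato+ eGFPneg and tdTomatoneg eGFPneg cells, 3 genes were past 2-fold in the main analysis and 0 with equal weights over groups, where 8.03% of all genes were. In Xist-only and Y-only cells Il1rap there was at log2 0.96 and 0.99. Between tdTomatoneg eGFP+ and tdTomatoneg eGFPneg cells 1 gene was past it, and 0 in Xist-only cells (10.9% of all genes; Il1a at log2 0.34) or with equal weights over groups (5.33%). Thinned to 1000 UMIs, Il1a there was at 0.47. Between the tdTomato+ populations 0 genes were past it, but 2 after thinning (11.1% of all genes), 1 in Y-only cells (7.52%) and 1 with a minimum of 10 UMIs (7.24%). For immune-like against collagen-expressing cells the count went from 3 (16.7% of all genes) to 6 with a mean over cells (32.4%), with thinning (24.9%) or with a fold of 1.5 (33.1%), to 5 with equal weights over libraries (20.0%), and to 7 with classes taken from markers per cell (34.3%) or without subcluster 1 (35.8%), so the share of all genes rose as well. For melanoma-like cells Il1a was at -0.92 with a mean over cells, Il1rl1 was at -0.37 in Xist-only cells, and some alternatives gave no value for these sparse genes. Between mesothelial-like and matrix fibroblast-like groups, Il1rl1 reversed to 0.24 in Xist-only cells, and without the tdTomatoneg eGFPneg library it was at -0.64. The causes were not tested. Depth limits Il1rl1, Il1rn, Il1a and Il1b most, with 215 to 453 UMIs each.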
